A study of Mus musculus with 10 samples.

Results

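The 9 genes described here belong to the bone marrow niche and to the cells it holds, and were measured in RNA from mouse bone marrow cells: the ligands Cxcl12, Kitl, Angpt1 and Csf1, the adhesion molecule Vcam1, and the receptors Cxcr4, Kit, Itga4 and Lepr. They were chosen by gene symbol, and all 9 were found among the 55367 genes of the deposited table. RNA came from marrow cells labelled BMMC of mice given 1% α-ketoglutarate (α-KG), an intermediate of the tricarboxylic acid cycle, in the drinking water and of mice given regular water, with 5 libraries in each group (α-KG 1 to 5 and water 1 to 5). Apart from treatment the labels are the same for all 10 libraries; the series title concerns myeloproliferative neoplasms, and strain, genotype, sex, age and the duration of treatment are stated in no source used here. Whether each library is from a separate animal is also not stated, so that the p-values below reflect library-to-library spread, which may be technical.

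The niche is the set of stromal, vascular and bone-lining cells that hold blood stem and progenitor cells in the marrow. CXCL12, made mainly by perivascular stromal cells that carry the leptin receptor and by endothelium, retains CXCR4-bearing stem cells, B cell precursors and neutrophils. Stem cell factor, encoded by Kitl, supports stem cells, progenitors and mast cells through the receptor tyrosine kinase KIT. VCAM1 on stroma, endothelium and macrophages is bound by the α4 integrins, whose α chain is encoded by Itga4. Angiopoietin 1 signals through TEK, and macrophage colony-stimulating factor (Csf1) through CSF1R on monocytes and macrophages.

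Promoters are shown for Cxcl12 and Kitl, the members that changed, beside those of their receptors Cxcr4 and Kit, which did not pass the test. Each line gives the 250 bases before the RefSeq transcript start on build GRCm38.p6, 5′ to 3′ on the gene's strand, and capitals mark GC boxes (GGGCGG) and TATA boxes (TATAAA) on either strand.
Cxcl12, chr6:117168285-117168534, plus strand: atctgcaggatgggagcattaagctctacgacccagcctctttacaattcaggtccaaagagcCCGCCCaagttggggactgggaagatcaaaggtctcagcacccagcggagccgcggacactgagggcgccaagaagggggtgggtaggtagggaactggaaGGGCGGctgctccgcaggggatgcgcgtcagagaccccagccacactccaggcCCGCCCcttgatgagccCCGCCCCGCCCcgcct
Kitl, chr10:100015571-100015820, plus strand: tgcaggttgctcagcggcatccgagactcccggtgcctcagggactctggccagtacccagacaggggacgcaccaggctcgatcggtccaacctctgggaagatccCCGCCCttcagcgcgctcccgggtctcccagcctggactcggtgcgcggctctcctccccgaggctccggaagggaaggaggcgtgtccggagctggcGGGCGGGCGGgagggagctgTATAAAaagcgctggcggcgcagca
Cxcr4, chr1:128592300-128592549, minus strand: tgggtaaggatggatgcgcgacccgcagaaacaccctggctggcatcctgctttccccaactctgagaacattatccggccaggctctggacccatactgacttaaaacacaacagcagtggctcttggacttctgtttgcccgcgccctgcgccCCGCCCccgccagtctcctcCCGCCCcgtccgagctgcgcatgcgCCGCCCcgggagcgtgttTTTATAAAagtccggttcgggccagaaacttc
Kit, chr5:75574737-75574986, plus strand, the first of its 2 listed starts: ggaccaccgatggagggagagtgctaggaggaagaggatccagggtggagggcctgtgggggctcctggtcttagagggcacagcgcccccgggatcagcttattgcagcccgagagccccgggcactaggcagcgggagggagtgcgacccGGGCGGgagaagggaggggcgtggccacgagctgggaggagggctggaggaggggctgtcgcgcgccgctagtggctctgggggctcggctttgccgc

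RefSeq listed promoters for 7 of the 9 members, Vcam1 and Angpt1 not among them, with 9 windows in all because Kit and Lepr have 2 each. The GC box, bound by SP family factors, was in 8 of the 9 windows and in 32.7% of the 32851 promoters of all genes. The 2 Kit windows overlap almost fully and hold the same GC box. The Cxcl12 window held 5 GC boxes and the Kitl window 3, and in each the 2 nearest the start overlap. A TATA box stood 25 bases before the start in Kitl, and in Cxcr4 the same run of letters matched on both strands; 12.4% of all promoters held one. The core letters bound by hypoxia-inducible factors, ACGTG, were in 0 of the 9 windows and in 16.6% of all promoters. These factors are controlled by hydroxylases that use α-KG. Bases beyond the windows were not searched, and a part of these factors in the values of the members was not tested. GC content of the windows was 64.4% for Cxcl12, 69.2% for Kitl, 61.2% for Cxcr4 and 70.8% for Kit, with a median of 52.4% over all promoters.

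Library totals ran from 14291364 to 21489380 counts in α-KG and from 16938450 to 22490118 in water. Marrow genes were abundant in all libraries, for instance the neutrophil granule gene Ngp at 898 to 2219 counts per 1000000 (CPM). Every library held both Xist (258 to 785 CPM) and Ddx3y, a gene of the Y chromosome (13.5 to 28 CPM), so which animals a library stands for is not known here. The make-up of 2 libraries differed from the rest of their group: the summed level of 8 erythroid genes was 1634 CPM in α-KG 1 against 6112 to 10695 in the other α-KG libraries, and the structural RNAs Rn7s1 and Rn7s2 took 7.56% of the counts of water 1 against 16.3% to 24.2% in the other water libraries. The share of these RNAs moved with treatment, at 24% to 31% in the α-KG libraries, and its part in the results was not tested. Protein-coding genes held 37.9% to 50.1% of the counts in α-KG and 42.2% to 72.2% in water. In bulk RNA, more cells of a type and more RNA per cell cannot be told apart.

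All 9 members passed the filter on low counts. Cxcl12 and Kitl rose with α-KG and 0 members fell (edgeR, adjusted p under 0.05 over 15126 genes), where 2.39% of all genes tested rose and 0.344% fell. DESeq2 called the same 2 members, where it called 10.4% of the 15951 genes to which it gave an adjusted p. With edgeR 5 of the 9 had an unadjusted p under 0.05, as did 27.8% of all genes tested. Of the 9 log2 fold changes 7 were above 0, with a median of 0.49 where the median over all genes tested was 0.02. All 5 α-KG libraries lay above all 5 water libraries for Cxcl12 and Kitl, as they did for 3.64% of all genes tested, and for 0 members did all lie below, as they did for 2.01%.

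**Figure D1:**
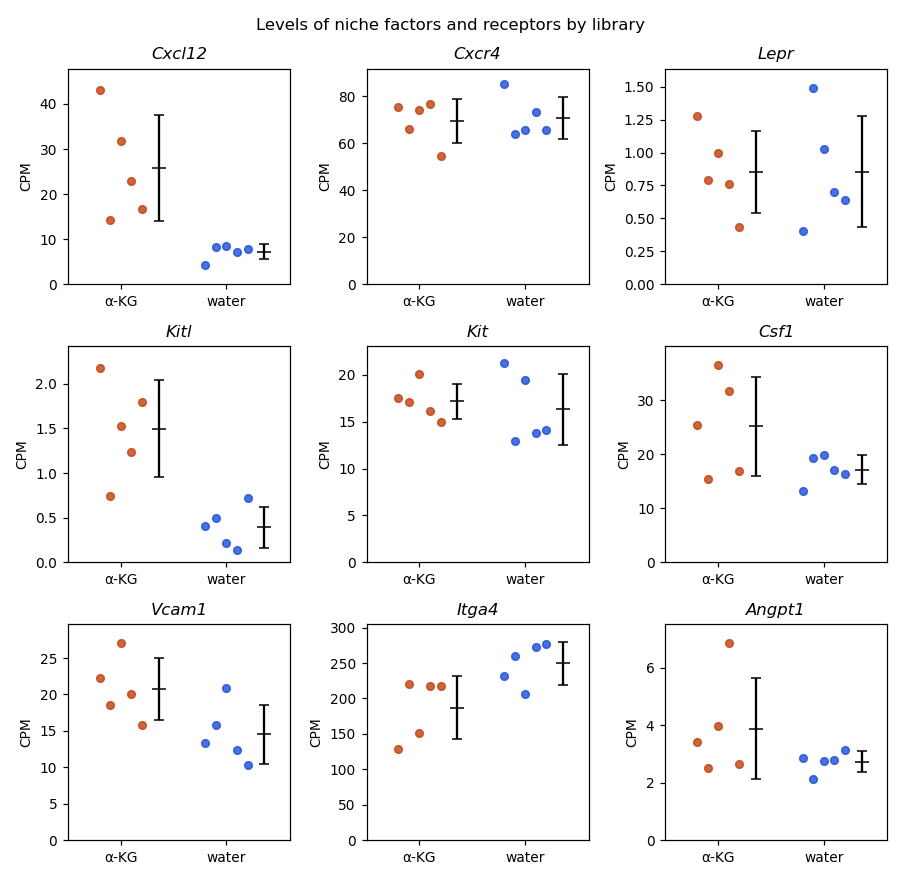
CPM of each member by library, with α-KG left of water; points are the 5 libraries of a group and the bar beside them is the mean ± SD. Cxcl12 (14.2 to 43.2 CPM in α-KG, 4.36 to 8.56 in water) and Kitl are the panels whose groups do not overlap, and the groups overlap in the panels of Cxcr4, Kit and Lepr.

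Per kilobase of exon, the receptors Cxcr4 and Itga4 were the most abundant members and Kitl and Lepr the least. In α-KG the order of mean levels was Cxcr4 (38.4 CPM per kilobase), Itga4 (13.4), Csf1 (4.77), Cxcl12 (3.15), Vcam1 (2.34), Kit (1.93), Angpt1 (0.745), Kitl (0.253) and Lepr (0.121). In water it was Cxcr4 (39.2), Itga4 (17.9), Csf1 (3.24), Kit (1.83), Vcam1 (1.64), Cxcl12 (0.882), Angpt1 (0.524), Lepr (0.121) and Kitl (0.0666). Neighbours whose library ranges overlapped were Csf1, Cxcl12, Vcam1 and Kit as a run and Kitl and Lepr in α-KG, and Kit and Vcam1, Cxcl12 and Angpt1, and Lepr and Kitl in water. Cxcl12 thus stood above Vcam1 in 4 of 5 α-KG libraries and below it in 5 of 5 water libraries, and Kitl stood above Lepr in 5 of 5 α-KG libraries. These levels use all annotated exons as the length, which need not be those of the transcripts present.

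Cxcl12 (chromosome 6, 117168535 to 117181367, build GRCm38) was higher in each α-KG library than in any water library. It stood at 43.2, 14.2, 31.8, 23.0 and 16.8 CPM in α-KG 1 to 5, against 4.36, 8.34, 8.56, 7.08 and 7.72 CPM in water 1 to 5. The lowest α-KG library, α-KG 2, was still above the highest water library, water 3, and the α-KG values spread over a wider range than the water values. The means were 25.8 ± 11.9 CPM in α-KG and 7.21 ± 1.70 CPM in water (SD, n = 5 each), a log2 fold change of 1.85 ± 0.30 (SE; edgeR, adjusted p = 0.0172, 5 of 5 α-KG libraries above the water mean). Raw counts behind these values were 233 to 1111 in α-KG and 108 to 241 in water. The call was lost without α-KG 3 (adjusted p = 0.0583), α-KG 4 (0.0528), water 1 (0.0657), water 2 (0.0617) or water 4 (0.0792), at log2 fold changes of 1.71 to 1.90. Without α-KG 1, the highest library, it was 1.57 and called (adjusted p = 0.0207).

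Its receptor gene Cxcr4 (chromosome 1, 128588199 to 128592293), carried by most of the marrow's blood-forming cells, overlapped between the groups. It stood at 75.6, 66.1, 74.0, 76.7 and 54.4 CPM in α-KG 1 to 5, against 85.1, 64.0, 65.7, 73.5 and 65.8 CPM in water 1 to 5. The highest library was water 1 and the lowest α-KG 5, and the other α-KG libraries lay within the range of the water libraries. The log2 fold change was -0.03 ± 0.13 (SE; edgeR, adjusted p = 0.899), with a 95% interval of -0.32 to 0.26, so a change of the size seen for Cxcl12 lies outside it. Its sign turned under upper-quartile scaling (0.04). Ackr3, encoding the scavenging receptor of CXCL12, had at most 6 counts in an α-KG library and 4 in a water library and did not pass the filter.

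Kitl (chromosome 10, 100015630 to 100100416) was a scarce transcript that was higher in α-KG. It stood at 2.18, 0.741, 1.53, 1.24 and 1.80 CPM in α-KG 1 to 5, against 0.402, 0.496, 0.213, 0.141 and 0.715 CPM in water 1 to 5. The groups did not overlap, but the lowest α-KG library, α-KG 2, and the highest water library, water 5, were close. The means were 1.5 ± 0.547 CPM in α-KG and 0.393 ± 0.229 CPM in water (SD, n = 5 each), a log2 fold change of 1.99 ± 0.42 (SE; edgeR, adjusted p = 0.0328, 5 of 5 α-KG libraries above the water mean). These values rest on 13 to 56 counts per library in α-KG and 3 to 13 in water. The call held without α-KG 2 (adjusted p = 0.00861) or water 3 (0.0459) and was lost without any of the other 8 libraries, at adjusted p of 0.0507 to 0.109 and log2 fold changes of 1.78 to 2.25.

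Kit (chromosome 5, 75574916 to 75656722), the receptor gene of stem cells, progenitors and mast cells, was at 17.5, 17.1, 20.1, 16.2 and 15 CPM in α-KG 1 to 5, against 21.3, 12.9, 19.5, 13.8 and 14.1 CPM in water 1 to 5. Water 1 was the highest library and water 2 the lowest, so all α-KG libraries lay inside the range of the water libraries. The log2 fold change was 0.07 ± 0.16 (SE; edgeR, adjusted p = 0.779), with a 95% interval of -0.27 to 0.41.

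Vcam1 (chromosome 3, 116109949 to 116129688) averaged higher in α-KG but did not pass the test over all genes. It stood at 22.3, 18.5, 27.1, 20.0 and 15.8 CPM in α-KG 1 to 5, against 13.3, 15.8, 20.9, 12.4 and 10.3 CPM in water 1 to 5. Water 3 lay among the α-KG libraries, water 2 was level with the lowest of them, α-KG 5, and the other water libraries were below it. The means were 20.7 ± 4.26 CPM in α-KG and 14.5 ± 4.06 CPM in water (SD, n = 5 each), a log2 fold change of 0.51 ± 0.19 (SE; edgeR, adjusted p = 0.123). When the mean of the macrophage genes entered the fit as a covariate, the fold change was -0.25 ± 0.31 (SE, edgeR, adjusted p = 1). That mean was higher in α-KG, so this fit cannot separate it from treatment.

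Itga4 (chromosome 2, 79255426 to 79333123), the α4 chain that binds VCAM1, had the lowest fold change of the members. It stood at 128, 220, 151, 218 and 218 CPM in α-KG 1 to 5, against 232, 260, 206, 273 and 277 CPM in water 1 to 5. α-KG 1 and α-KG 3 lay well below the others, and the remaining 3 lay between water 3 and water 1. The log2 fold change was -0.42 ± 0.19 (SE; edgeR, adjusted p = 0.180), and -0.31 without α-KG 1. The summed erythroid markers, at 1634 CPM in α-KG 1, were at 7300 CPM in α-KG 3, and their part in the Itga4 values was not tested. Itga4 shares 1124 exonic bases with Cerkl on the opposite strand; its deposited counts were not whole numbers, and Cerkl had 7.54 to 18.44 counts in α-KG and 16.99 to 42.76 in water, where Itga4 had 2296 to 4455 and 3879 to 7515.

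Csf1 (chromosome 3, 107741048 to 107760469), the growth factor of monocytes and macrophages, was at 25.4, 15.4, 36.5, 31.7 and 16.8 CPM in α-KG 1 to 5, against 13.2, 19.2, 19.8, 17.1 and 16.4 CPM in water 1 to 5. α-KG 1, 3 and 4 exceeded all water libraries, while α-KG 2 and α-KG 5 lay among them. The log2 fold change was 0.55 ± 0.23 (SE; edgeR, adjusted p = 0.144), and without α-KG 2 it was 0.69 and called (adjusted p = 0.0411). When the mean of the monocyte genes entered the fit, the fold change was -0.33 ± 0.36 (SE, edgeR, adjusted p = 1). That mean was higher in α-KG, so this fit cannot separate it from treatment.

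Angpt1 (chromosome 15, 42424723 to 42676977) was at 3.42, 2.52, 3.96, 6.84 and 2.66 CPM in α-KG 1 to 5, against 2.84, 2.13, 2.74, 2.77 and 3.15 CPM in water 1 to 5. One library, α-KG 4, was well above the rest, and α-KG 2 and α-KG 5 lay within the water range. The log2 fold change was 0.49 ± 0.26 (SE; edgeR, adjusted p = 0.232) with all libraries and 0.21 (adjusted p = 0.515) without α-KG 4. The antisense gene Gm17473 shares 737 exonic bases with Angpt1 and had at most 1.59 counts in a library.

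Lepr (chromosome 4, 101717404 to 101815352), the receptor gene that marks CXCL12-making stroma, was near the limit of detection. It stood at 1.28, 0.790, 1.00, 0.760 and 0.432 CPM in α-KG 1 to 5, against 0.402, 1.49, 1.03, 0.703 and 0.643 CPM in water 1 to 5, from 6 to 33 counts per library in α-KG and 9 to 30 in water. The highest library was water 2 and the lowest water 1. The log2 fold change was 0.04 ± 0.38 (SE; edgeR, adjusted p = 0.952), and its 95% interval of -0.79 to 0.87 is wide. Counts of Cxcl12 per count of Lepr were 33.7, 18.0, 31.6, 30.2 and 38.8 in α-KG 1 to 5, against 10.8, 5.60, 8.31, 10.1 and 12.0 in water 1 to 5. This ratio, which was looked at after the values were seen and was not tested, did not overlap between the groups. Lack of overlap was not particular to Lepr. Counts of Cxcl12 per count of Vcam1 spanned 0.768 to 1.94 in α-KG and 0.327 to 0.75 in water. Those per count of Csf1 spanned 0.725 to 1.7 in α-KG and 0.329 to 0.472 in water. Counts of Cxcl12 per count of Kitl, looked at in the same way, overlapped, at 9.32 to 20.7 in α-KG and 10.8 to 50.3 in water.

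**Figure D2:**
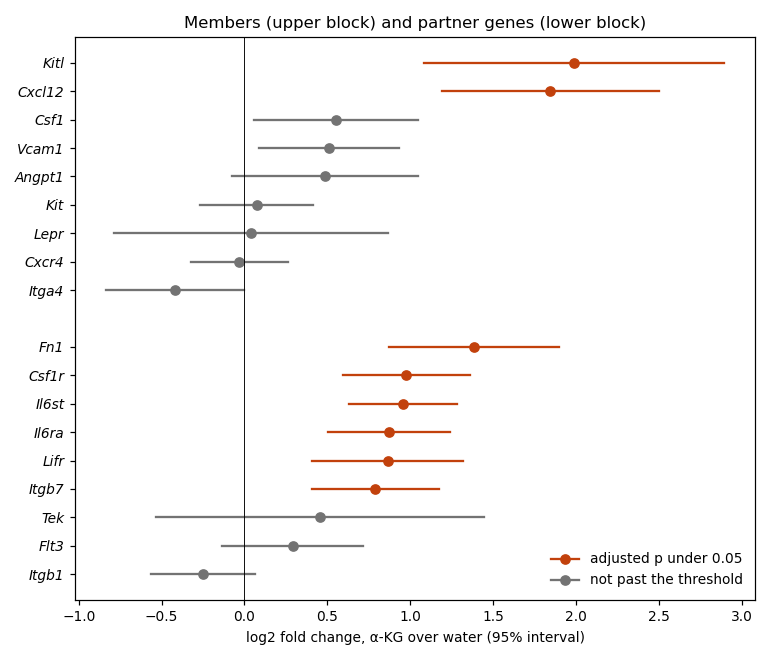
Log2 fold changes of α-KG over water with 95% intervals from the fit over all genes, for the 9 members (upper block, ordered by size) and for 9 partner genes (lower block); colour marks an adjusted p under 0.05. Kitl (1.99) and Cxcl12 (1.85) are the members past the threshold, and Itga4 (-0.42) is the lowest.

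Ligand and receptor levels were also set against each other within each library, where the scaling between libraries enters only through the 0.1 CPM added to each value. Of 5 ligand and receptor pairs, 3 had a higher ratio of ligand to receptor in α-KG, 1 a lower ratio and 1 a difference that was not past the threshold. These ratios reuse the counts of genes tested singly here and are not separate support for their changes. The share of other gene pairs that would pass was not computed. Receptor CPM per CPM of ligand was 1.75, 4.65, 2.33, 3.33 and 3.24 for Cxcr4 over Cxcl12 in α-KG 1 to 5, against 19.5, 7.68, 7.68, 10.4 and 8.52 in water 1 to 5. The log2 ratio of Cxcl12 to Cxcr4 averaged -1.53 ± 0.54 in α-KG and -3.31 ± 0.56 in water (SD, n = 5 each), 1.78 higher in α-KG without overlap (exact two-sided permutation p = 0.00794, the smallest this design allows; adjusted p = 0.0397 over 5 pairs). This call held without each library in turn, with differences of 1.54 to 1.95. Because the groups did not overlap, leaving out a library could not make them overlap. These runs are therefore no separate support for the call.

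The ratio of Kitl to Kit was also higher in α-KG, with overlap of the groups. Kit CPM per CPM of Kitl was 8.05, 23.1, 13.1, 13.1 and 8.36 in α-KG 1 to 5, against 52.9, 26.0, 91.5, 98.0 and 19.7 in water 1 to 5. The log2 ratio of Kitl to Kit averaged -3.51 ± 0.57 in α-KG and -5.16 ± 0.83 in water (SD, n = 5 each), 1.65 higher in α-KG (exact permutation p = 0.0159, adjusted p = 0.0397 over 5 pairs). It was 0.74 higher when 1 CPM in place of 0.1 was added to each value. The call was lost without α-KG 1, 3, 4 or 5 or without water 1, 2 or 4 (adjusted p = 0.0529 to 0.0661).

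For Vcam1 and Itga4 the log2 ratio averaged -3.15 ± 0.61 in α-KG and -4.13 ± 0.54 in water (SD, n = 5 each), 0.97 higher in α-KG (exact permutation p = 0.0397, adjusted p = 0.0496 over 5 pairs). Water 3, at -3.30, lay among the α-KG libraries, and this call was lost without any of the libraries but water 3 (adjusted p = 0.0595 to 0.0992). The ratio of Csf1 to its receptor gene Csf1r went the other way, at -1.56 ± 0.37 in α-KG and -1.09 ± 0.17 in water, a difference of -0.47 (SD, n = 5 each; exact permutation p = 0.0238, adjusted p = 0.0397 over 5 pairs). All 5 α-KG libraries were below the water mean, and the call was lost without α-KG 1, 2, 4 or 5 or without water 1, 2, 4 or 5 (adjusted p = 0.0529 to 0.0926). The ratio of Angpt1 to its receptor gene Tek averaged 2.15 ± 0.55 in α-KG and 2.12 ± 0.71 in water (SD, n = 5 each; exact permutation p = 0.929, adjusted p = 0.929).

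**Figure D3:**
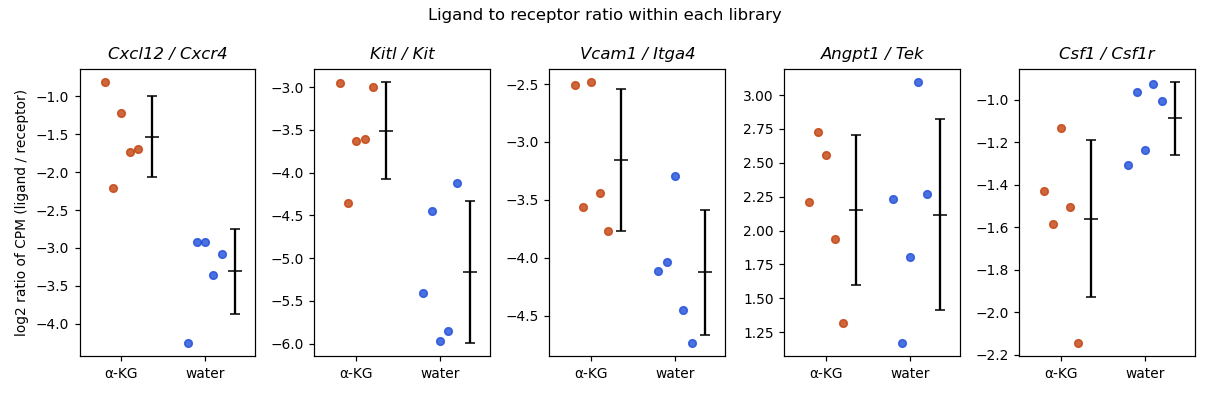
Log2 ratio of ligand to receptor CPM in each library, after adding 0.1 CPM to each, for 5 pairs with α-KG left of water; points are libraries and the bar is the mean ± SD, and each panel has its own axis. For Cxcl12 over Cxcr4 the α-KG libraries lie between -2.21 and -0.81 and the water libraries between -4.26 and -2.93.

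Among 69 other ligands, receptors and adhesion genes of the same systems, 53 passed the filter on low counts, 6 rose and 0 fell (edgeR, adjusted p under 0.05). Over all genes tested 2.39% rose and 0.344% fell. With edgeR 23 of the 53 had an unadjusted p under 0.05, against 27.8% of all genes tested. DESeq2, run without that filter, called 11 of the 69, against 10.4% of the genes to which it gave an adjusted p. Their median log2 fold change was 0.40, against 0.02 over all genes tested. The count of 6 was 17 without α-KG 2, 1 without α-KG 3 or water 5, and 0 without α-KG 4, water 1, water 2 or water 4.

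Of the growth factor receptors, 4 rose. Csf1r, the receptor gene for CSF1, averaged 72.0 ± 16.5 CPM in α-KG and 36.5 ± 6.08 CPM in water (SD, n = 5 each), a log2 fold change of 0.98 (edgeR, adjusted p = 0.0232), with α-KG 2 at 46.2 CPM just below the highest water library at 46.8. The 3 receptor chains Il6st, Il6ra and Lifr of the interleukin 6 family rose by similar amounts. Il6st, the shared signalling chain, stood at 34.0, 19.0, 27.3, 33.7 and 28.1 CPM in α-KG 1 to 5 and at 14.3, 14.4, 16.2, 13.5 and 14.8 CPM in water 1 to 5, without overlap (log2 fold change 0.96, edgeR, adjusted p = 0.0154). Il6ra, the interleukin 6 receptor, was at 0.87 (adjusted p = 0.0278), also without overlap, and Lifr, the receptor of leukaemia inhibitory factor, at 0.87 (adjusted p = 0.0489). Flt3, a receptor gene of progenitors, was at 0.29 (adjusted p = 0.339), and Tek at 0.45 (adjusted p = 0.523).

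Of the adhesion genes, Fn1 and Itgb7 rose. Fn1, encoding fibronectin, another ligand of α4 integrins, stood at 368, 218, 545, 445 and 466 CPM in α-KG 1 to 5 and at 138, 165, 191, 138 and 150 CPM in water 1 to 5 (log2 fold change 1.38, edgeR, adjusted p = 0.0184). Itgb7, a β chain that pairs with α4, averaged 63.1 ± 14.1 CPM in α-KG and 36.5 ± 5.86 CPM in water (SD, n = 5 each; 0.79, edgeR, adjusted p = 0.0394). Itgb1, the β chain of the VCAM1 receptor VLA-4, was at 68.6 ± 13.3 CPM in α-KG and 81.4 ± 5.37 CPM in water (SD, n = 5 each; -0.25, edgeR, adjusted p = 0.269). Of the chemokine genes and of the vascular and Notch genes, 0 of 8 and 0 of 14 passed with edgeR. An unadjusted p under 0.05 was found for 4 and 3, beside 27.8% of all genes tested. DESeq2 called 1 of 10 and 0 of 16, beside 10.4% of the genes with an adjusted p.

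Stromal markers were at low levels in the marrow libraries. Their mean entered a fit as a covariate, but it was higher in α-KG. Their part in the values of the members was therefore not tested apart from treatment. Of 12 stromal genes that exclude the members, 6 passed the filter and all 6 log2 fold changes were above 0 (median 0.60), with 0 called (edgeR, 2 at an unadjusted p under 0.05). DESeq2 called 1 of the 12. Their summed level was 18.9 to 32.7 CPM in α-KG and 10.2 to 24.2 CPM in water. Igfbp5, averaging 10.3 CPM in α-KG and 8.87 CPM in water, was the largest part. Log2 fold changes ran from 0.21 for Pdgfrb to 1.40 for Lpl (edgeR, adjusted p = 0.569 and 0.0506). Adipoq, Pdgfra, Grem1, Nes, Dcn and Lum were below the filter, at up to 28 counts, and each averaged higher in α-KG. Of 10 osteoblast genes 3 passed the filter; their sum, set mostly by Col1a1 and Runx2, was 60.0 to 86.2 CPM in α-KG and 49.3 to 172 CPM in water, and Dmp1 and Sost were at 0 in at least 5 libraries. The collagen gene Col1a1 averaged 22 CPM in α-KG and 69.0 CPM in water (log2 fold change -1.64, edgeR, adjusted p = 0.0577). Runx2 and Alpl went the other way, at 0.495 and 1.03 (edgeR, adjusted p = 0.116 and 0.201). Below the filter, Bglap averaged 0.205 CPM in α-KG and 0.544 CPM in water, and Bglap2 0.135 and 0.355 CPM. Ibsp, Sp7 and Dmp1 were also lower on average in α-KG, by less, while Phex and Sost were higher. With edgeR 0 of the 3 osteoblast genes tested were called and 2 had an unadjusted p under 0.05, and DESeq2 called 1 of the 10. Over all genes tested 27.8% had such a p, and DESeq2 called 10.4% of genes with an adjusted p. Of 10 endothelial genes 9 passed the filter with all 9 log2 fold changes above 0 (median 0.53) and 0 called (edgeR; 3 at an unadjusted p under 0.05, 0 called by DESeq2), and their sum was 16.2 to 28.4 CPM in α-KG and 13.7 to 22 CPM in water.

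Part of the monocyte and macrophage markers rose (edgeR, adjusted p under 0.05), where 2.39% of all genes tested rose. Of 10 monocyte genes 7 rose, with a summed level of 569 to 1168 CPM in α-KG and 411 to 551 CPM in water, and this list holds Csf1r and Fn1. Of 13 macrophage genes 11 passed the filter and 4 rose, with a sum of 111 to 154 CPM in α-KG and 74.1 to 102 CPM in water. Of the 11 log2 fold changes 10 were above 0. The exception was Slc40a1, the largest part of the sum, at 40.9 CPM in α-KG and 43.6 CPM in water. Vsig4 and Timd4, below the filter, averaged lower in α-KG, and Timd4 was at 0 in at least 5 libraries. Of 10 stem and progenitor genes 9 passed the filter and 1 rose, Gata2, with sums of 38.4 to 72.9 CPM in α-KG and 28.3 to 42.0 CPM in water. With edgeR 10 monocyte, 10 macrophage and 2 stem and progenitor genes had an unadjusted p under 0.05, against 27.8% of all genes tested. DESeq2 called 8 of the 10 monocyte, 9 of the 13 macrophage and 1 of the 10 stem and progenitor genes, against 10.4% of all genes with an adjusted p. The 7 mast cell and basophil genes, whose cells carry Kit, summed to 182 to 409 CPM in α-KG and 153 to 292 CPM in water. Of 9 T and NK cell genes, all of which passed the filter, 2 rose, Cd3e and Il2rb (edgeR, adjusted p = 0.0445 and 0.0404). In that list 5 had an unadjusted p under 0.05 with edgeR, and DESeq2 called 2. The mean log2(CPM + 1) in α-KG minus that in water was 0.42 for T and NK cell genes, 0.10 for megakaryocyte, 0.04 for neutrophil, 0.04 for early B cell, -0.007 for granulocyte precursor and -0.95 for erythroid genes. Without α-KG 1 the difference was -0.46 for erythroid, -0.18 for early B cell, 0.13 for neutrophil, 0.03 for granulocyte precursor and 0.02 for megakaryocyte genes.

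When the mean of the stromal, macrophage or monocyte list entered the fit, Cxcl12 stood at 0.82, 0.92 and 1.15 on the log2 scale and Kitl at 1.24, 2.57 and 1.47 (edgeR, adjusted p = 0.943 to 1). In each of those 3 fits edgeR called 0 of all genes tested, with 666, 183 and 167 at an unadjusted p under 0.05. All 3 means were higher in α-KG, and the macrophage and monocyte sums did not overlap between the groups. These fits therefore cannot separate the lists from treatment. With the protein-coding share of the counts as a covariate the values were 1.72 for Cxcl12 and 1.84 for Kitl (adjusted p = 0.161 for each).

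**Figure D4:**
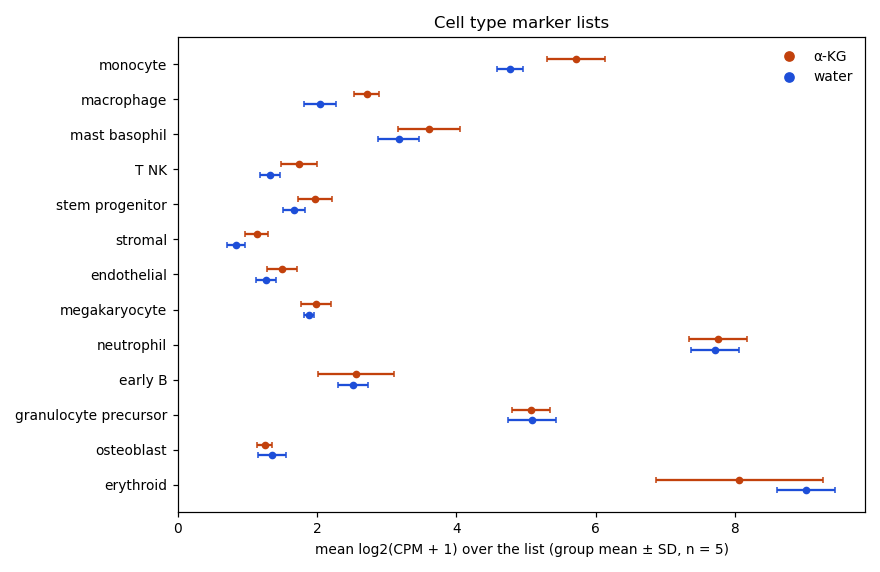
Mean log2(CPM + 1) of 13 cell type marker lists, with α-KG drawn above water in each row; points are group means and bars the SD over 5 libraries. The monocyte list is 0.95 and the macrophage list 0.67 higher in α-KG, and the stromal and endothelial lists are 0.30 and 0.24 higher.

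Genes whose pattern over the 10 libraries was most like that of a member were found by the root-mean-square difference of z-scored log2 CPM, among genes averaging 1 or more on the log2 CPM scale. Nearest to Cxcl12 were Brat1 (0.177 SD), Mtdh (0.239) and Zcchc24 (0.240), where the median over 10163 candidates was 1.37. Zcchc24 averaged 12.2 ± 2.45 CPM in α-KG and 5.83 ± 1.12 CPM in water (SD, n = 5 each). Nearest to Kitl were Gna15 (0.327 SD), Ift172 (0.334) and Trappc4 (0.336); nearest to Vcam1 were Alcam (0.224), encoding another adhesion molecule of the immunoglobulin family, Cd84 (0.236) and Zfyve16 (0.254). Nearest to Cxcr4 were Abhd13 (0.392), Tmem123 (0.448) and Iglc2 (0.469). Among the members themselves, Cxcl12 was nearest to Kitl (0.558), followed by Csf1 (0.625) and Vcam1 (0.653), and farthest from Itga4 (1.81). These distances include the difference between the groups and carry no test.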

How the data were processed

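Total RNA of mouse bone marrow cells was depleted of ribosomal RNA with RNase H and sequenced on an Illumina instrument, per the labels. The submitters' processing notes name bcl2fastq, DRAGEN and GRCm38; no source used here states the quantifier, the annotation release or the strand setting. The authors deposited expected counts (estimated counts) per gene, not scaled between libraries, of which 10.3% are not whole numbers; they were rounded here. All 10 libraries were used.

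Genes were kept by edgeR's filterByExpr (minimum count 10, minimum total 15), leaving 15126. They were tested with edgeR 4.0.16 in R 4.3.3 (quasi-likelihood F test, TMM scaling, robust, two-sided, Benjamini-Hochberg over all genes tested, threshold 0.05); these steps were also run on simulated data with known changes. SE were derived from the log2 fold change and its F statistic, and 95% intervals use the fit's degrees of freedom. CPM are counts per 1000000 after TMM scaling. Ratios added 0.1 CPM to each value. Alternatives used DESeq2 1.42.0, limma 3.58.1 (voom), other scalings and filters, covariates and each library left out. Positions, lengths and biotypes came from GENCODE M21 on GRCm38, promoters from RefSeq on GRCm38.p6.

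Members and lists were chosen with earlier results of these data known. Partner genes named are those past the threshold and fixed genes (Csf1r, Tek, Itgb1, Ackr3, Flt3 and 1 that is not reported here), and the genes most alike are the 3 nearest to each of 4 members, unnamed gene models left out.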

Additional observations from a re-analysis of the deposited data

How the results depend on the processing

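No paired analysis was possible because α-KG and water samples share no numbers in their titles and the labels give no pairing. Cxcl12 and Kitl kept their sign in every alternative run; Kitl and Lepr could not be fitted where at least 1 CPM in 5 samples was required. Their calls held under the other scalings and filters, DESeq2 and limma voom. They were lost with the monocyte, macrophage and stromal means and the protein-coding share as covariates, where Cxcl12 stood at 1.15, 0.92, 0.82 and 1.72 and Kitl at 1.47, 2.57, 1.24 and 1.84. Leaving out single libraries gave 1.57 to 2.0 for Cxcl12 and 1.78 to 2.25 for Kitl.

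Of the members not past the threshold, Kit and Itga4 kept their sign under every covariate and scaling run, and the others turned sign under some. With the monocyte mean, Cxcr4 stood at 0.0101, Angpt1 at -0.34, Csf1 at -0.33 and Lepr at -0.22. With the macrophage mean, Vcam1 stood at -0.25, Angpt1 at -0.25, Csf1 at -0.52 and Lepr at -0.996. Lepr stood at -0.725 with the stromal mean, and at -0.17 with the protein-coding share, where Cxcr4 stood at 0.0728. Upper-quartile scaling gave 0.0351 for Cxcr4. Leaving out single libraries gave -0.0686 to 0.0456 for Cxcr4, -0.0016 to 0.19 for Kit, -0.18 to 0.32 for Lepr and 0.38 to 0.69 for Csf1, which was called without α-KG 2. For Vcam1, Itga4 and Angpt1, leaving out libraries changed no call and no sign.

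Ratios kept their sign except Angpt1 to Tek, at -0.0051 with 0.01 CPM added and -0.20 to 0.28 without single libraries. Without single libraries the differences were 1.54 to 1.95 for Cxcl12 to Cxcr4, 1.45 to 1.91 for Kitl to Kit, 0.80 to 1.18 for Vcam1 to Itga4 and -0.58 to -0.32 for Csf1 to Csf1r. Over all genes, DESeq2 called 1657 and limma voom 267, where edgeR called 413. With edgeR the count was 0 with each of the 4 covariates (167, 183, 666 and 3457 genes at an unadjusted p under 0.05) and 0 to 2683 without single libraries, where 0 came with 3232 to 3672 such genes. Of the partner genes, DESeq2 called 11 and each covariate left 0, and leaving out libraries gave 0 to 17. Marker levels without α-KG 1, a comparison chosen after seeing the data, are given with the lists. The cause of these changes was not tested. Counts of 3 to 56 per library limit Kitl and Lepr.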

Other observations

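Counts of Itgb7 per count of Itgb1, the β chains that pair with the product of Itga4, were 1.47, 0.507, 1.19, 0.744 and 0.959 in α-KG 1 to 5, against 0.330, 0.505, 0.570, 0.410 and 0.445 in water 1 to 5. Water 3 exceeded α-KG 2, and the other 4 α-KG libraries lay above all water libraries. Counts of Itgb1 per count of Itga4 spanned 0.314 to 0.401 in α-KG and 0.297 to 0.364 in water, and those of Itgb7 per count of Itga4 spanned 0.180 to 0.591 in α-KG and 0.120 to 0.206 in water. These ratios were looked at after the values were seen and carry no test.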
